A study of Mus musculus with 6 samples.

Results

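A set of 10 genes that mark mast cells and basophils was followed in Ba/F3 cells with and without doxycycline induction of the SPAG9-JAK2 fusion. The genes were Kit, Fcer1a, Ms4a2, Cpa3, Mcpt8, Tpsab1, Tpsb2, Hdc, Gata2 and Prss34. Their probe sets were taken by the gene symbols in the platform table, with no filter on their values. The list of genes itself was chosen with earlier results of these data known. Of the 10 genes 9 had a probe set, among 18193 genes with 1, and together they had 14 of the 34945 probe sets with a single gene symbol. No probe set was listed for Prss34, which is not analysed here. Ba/F3 is a mouse cell line, labelled as pro-B, that depends on interleukin-3, and all cells here carried the fusion of the scaffold protein SPAG9 with the tyrosine kinase JAK2 in a Tet-On retroviral system that doxycycline switches on. Induced cells received doxycycline at 500 ng/ml (3 arrays) and uninduced cells received none (3 arrays), and RNA of both was taken after 48 hours. Cells given doxycycline but lacking the fusion were not among the 6 arrays, and the labels do not say whether the line was 1 clone or a pool, or whether interleukin-3 was in the medium after the cells were washed and seeded. The comparison is of cells given doxycycline with cells given none. Effects of the fusion and of doxycycline itself cannot be told apart.

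Mast cells and basophils carry the high-affinity receptor for IgE, FceRI, which is built of the alpha chain FCER1A, the beta chain MS4A2 and the gamma chain FCER1G, and which triggers release of stored granules when IgE is crosslinked. The granules hold histamine, made by the histidine decarboxylase HDC, and proteases such as the carboxypeptidase CPA3, the tryptases TPSAB1 and TPSB2 of mast cells, and MCPT8 and PRSS34 of mouse basophils. KIT is the receptor for stem cell factor, on which mast cells depend, and GATA2 is a zinc finger transcription factor needed for progenitors and for both lineages.

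The arrays, Affymetrix mouse 3′ expression arrays, gave a signal for every probe set on a linear scale, with median signals from 46.2 to 63.6. Levels are given as signal, and differences as induced minus uninduced means of log2(signal + 16). No detection call came with the values. As a yardstick for dim signal, 40 liver and brain genes were listed, of which 37 were measured, and a probe set was called dim on an array where it lay below that list's 90th percentile there (signals of 64.4 to 99.3). A dim signal does not show that the RNA is absent. Of all 18193 genes, 8832 were above the dim line on all 6 arrays, the share to set beside the counts below. Uninduced replicate 1 stood apart: over all genes, 21 rose and 13 fell in limma with all arrays, and 586 rose (3.22%) and 867 fell (4.77%) without it. The mouse probe set of Jak2 read 1430, 1740 and 1600 in induced cells, against 1175, 3439 and 3081 in uninduced cells, and that of Spag9 read 2219, 1667 and 1938 against 2222, 4702 and 4660. The labels do not say whether these probe sets read the fusion transcript. B-lineage markers were mostly dim in this line: of 17 measured, 11 were dim on all 6 arrays and 3 on none, and their summed signal was 2121 to 2454 in induced cells and 2318 to 2527 in uninduced cells.

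None of the 9 measured marker genes passed the test between induced and uninduced cells. Gata2 was the 1 member of 9 above the dim line on all 6 arrays, against 8832 of all 18193 genes. Ms4a2 and Hdc were above it on some arrays, and Kit, Fcer1a, Cpa3, Mcpt8, Tpsab1 and Tpsb2 were dim on all 6. In limma with Benjamini-Hochberg adjustment, 0 of 9 genes and 0 of 14 probe sets had an adjusted p under 0.05, against 0.187% of all genes and 0.12% of all probe sets. At an unadjusted p under 0.05 there was 1 of 9, Cpa3, against 17.4% of all genes. With the replicate number as a block there were 3 of 9, Cpa3 higher and Gata2 and Tpsab1 lower, against 3269 of all 18193 genes. Again 0 passed. The count was also 0 under every alternative setting tried, among them the fits without uninduced replicate 1 and without both replicate 1 arrays. The median difference of the 9 was -0.51, against -0.06 over all 18193 genes, with 5 negative and 4 positive. That median is the value of Fcer1a, 1 of the 6 members dim on all 6 arrays, so it describes mostly dim signal.

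**Figure D1:**
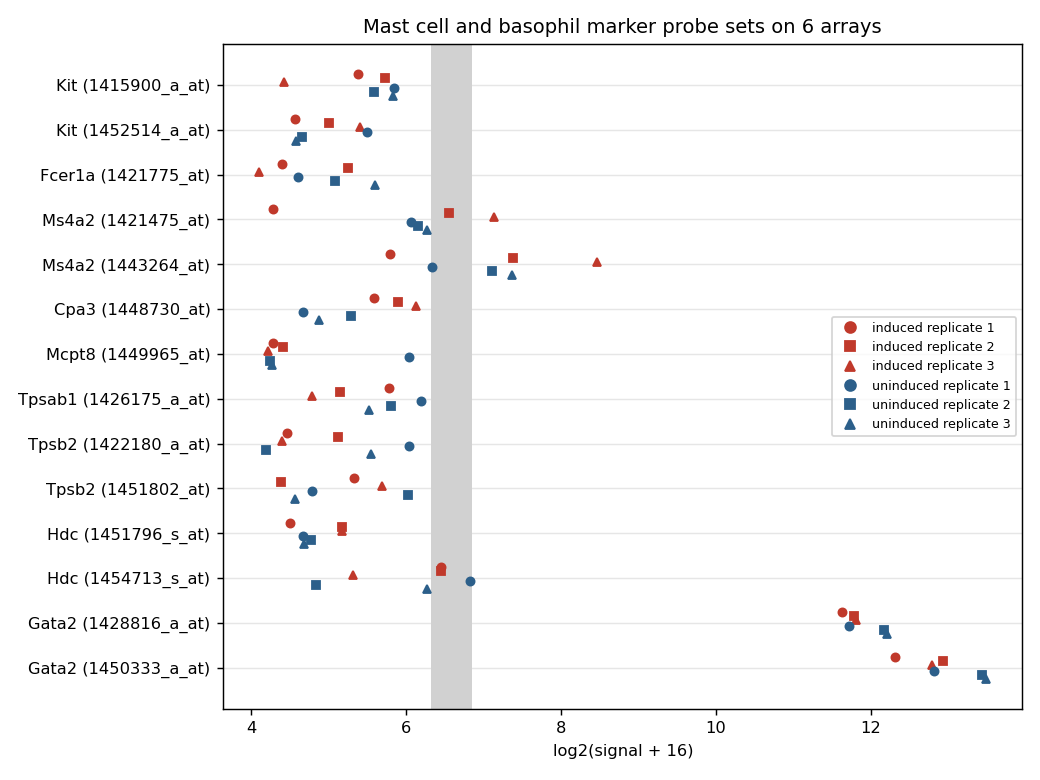
Level of each of the 14 probe sets on each of the 6 arrays, as log2(signal + 16) on the horizontal axis, with induced arrays drawn in red above uninduced arrays in blue and the symbol showing the replicate number. The grey band is the dim line, as a range over arrays; both Gata2 probe sets lie far to its right, both Ms4a2 probe sets and 1 Hdc probe set reach it or pass it on some arrays, and the others lie to its left.

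Gata2, on chromosome 6 (GRCm38.p6, 88193891 to 88207032), is read by 2 probe sets. The brighter gave signals of 5062, 7771 and 7089 in induced cells, against 7219.6, 11084 and 11477 in uninduced cells. Each induced array lay below the uninduced array of the same number, but the groups overlapped, since induced replicate 2 was above uninduced replicate 1. The means were 6641 ± 1409 in induced and 9927 ± 2353 in uninduced cells (SD, n = 3 each). The log2 difference was -0.57 ± 0.26 (SE), with a 95% interval from -1.21 to 0.065 and an adjusted p of 0.327 in limma. It was -0.51 between the replicate 1 arrays and -0.60 between the others, and each alternative setting kept it below 0 without a call, with adjusted p from 0.0688 to 0.604. With the replicate number as a block the SE was 0.154 and the adjusted p 0.231.

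The other Gata2 probe set read 3144, 3502 and 3576 in induced cells, against 3354, 4584 and 4711 in uninduced cells. Again uninduced replicate 1 lay inside the range of the induced arrays, and uninduced replicates 2 and 3 lay above all of them. Its log2 difference was -0.29 ± 0.20 (SE), with a 95% interval from -0.77 to 0.18 and an adjusted p of 0.519 in limma. Neither probe set passed and both intervals hold 0, so a fall of Gata2 is not established. In a cell population, fewer cells with Gata2 RNA and less of it per cell could not be told apart either.

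**Figure D2:**
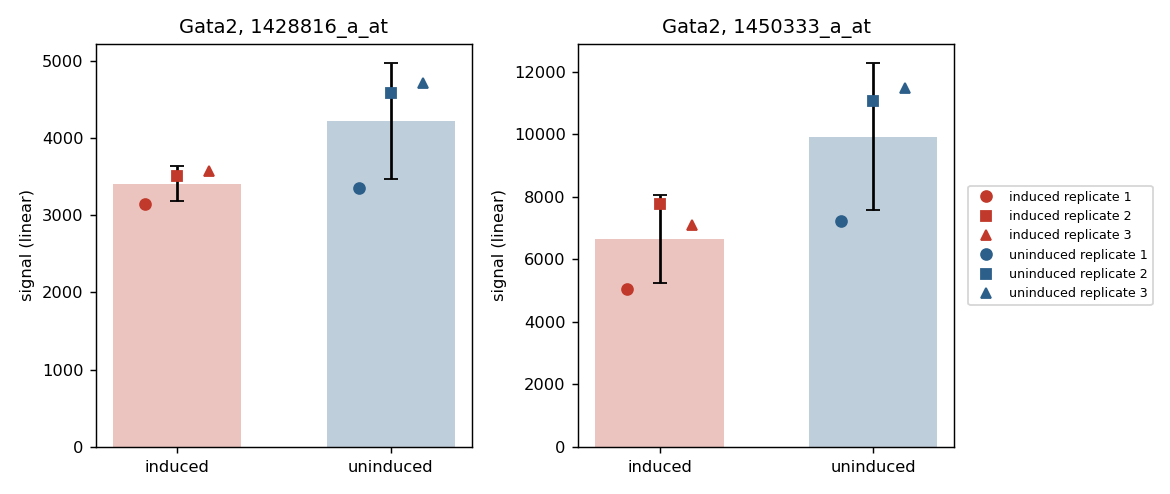
Signal of the 2 Gata2 probe sets on a linear axis from 0, with bars for the means of 3 induced and 3 uninduced arrays, lines for the SD and symbols for the arrays. In both panels uninduced replicates 2 and 3 lie above every induced array, while uninduced replicate 1 lies within the range of the induced arrays.

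The genes whose pattern over the 6 arrays was most like that of Gata2 were Fut8, a fucosyltransferase, Yipf4, a Golgi membrane protein, and Zdhhc17, a palmitoyltransferase, with Pearson correlations of 0.997, 0.996 and 0.996 over 6 arrays, out of 8831 genes that were not dim on any array. Such a pattern was common, since 646 of the 8831 had a correlation above 0.9. Fut8 read 8829, 12298 and 11937 in induced cells, against 12021, 17255 and 17125 in uninduced cells. These are descriptions of 6 points that share their arrays and their 2 groups.

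Among the 3 receptor genes of the set (Kit, Fcer1a and Ms4a2), Ms4a2 was the 1 with signal above the dim line. Its brighter probe set read 39.4, 150.2 and 339 in induced cells, against 64.7, 122 and 149 in uninduced cells. The replicate 1 array was the lowest of each group and dim in both, and the groups overlapped over the whole uninduced range. The log2 difference was 0.28 ± 0.68 (SE), with a 95% interval from -1.35 to 1.90 and an adjusted p of 0.871 in limma, which leaves room for changes of either sign. It was -0.54 between the replicate 1 arrays and 0.69 between the others, so its direction depended on the replicate number. The dimmer probe set read 3.53, 77.8 and 125 in induced cells, against 51.0, 55.5 and 61.2 in uninduced cells. Only induced replicates 2 and 3 were above the dim line there, and its log2 difference was -0.17 ± 0.70 (SE, adjusted p of 0.934 in limma).

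The level of Ms4a2 was low in replicate 1 of both groups, as were granule genes of eosinophils. Prg2, the eosinophil major basic protein, read 416, 13421 and 24812 in induced cells, against 647, 11624 and 11515 in uninduced cells. Epx, eosinophil peroxidase, read 34.8, 2336 and 5824 against 97.8, 1412 and 1461, and Prg3, a homologue of Prg2, read 5.97, 1105 and 2854 against 16.7, 306 and 281. All 3 were lowest on the replicate 1 array of each group and highest on induced replicate 3, as was the brighter Ms4a2 probe set. Siglecf, a lectin of eosinophils, went another way, with 510, 301 and 404 in induced cells, against 221, 1041 and 906 in uninduced cells. The pattern was not particular to these genes, and its share over all genes was not counted. Both Gata2 probe sets and the mast cell list genes Cma1, Fcer1g, Slc18a2, Srgn and Alox5ap were also lowest on the replicate 1 array of each group. So were further genes, picked out after their values were seen: the neutrophil granule genes Mpo and Prtn3, Cd3g of the T cell receptor complex, the adaptor gene Lat2, the calcium channel gene Orai1 and the integrin gene Itgb7. Of these, Mpo was also highest on induced replicate 3, with 33.1, 212 and 497 in induced cells, against 50.1, 280.4 and 249 in uninduced cells. The log2 differences of Prg2, Epx and Prg3 were 0.23 ± 1.81, 0.51 ± 1.92 and 1.5 ± 1.91 (SE), and 0 passed in limma. Of the 8 measured eosinophil markers 4 were dim on all arrays, including the receptor genes Ccr3 and Il5ra, and the summed signal of the list ranged from 1029 to 33939 in induced and from 1069.5 to 14448 in uninduced cells. The part of this replicate difference in the Ms4a2 values was not tested.

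**Figure D3:**
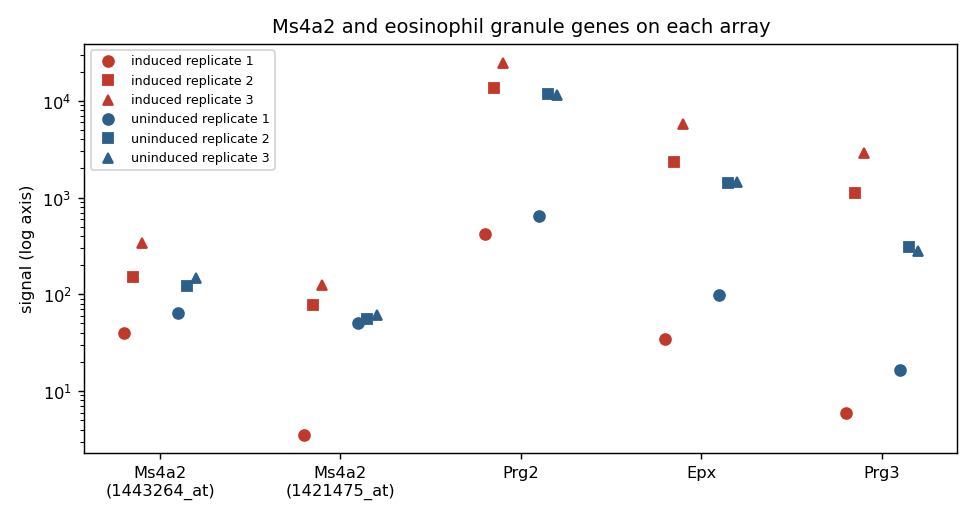
Signal on a log axis of the 2 Ms4a2 probe sets and of the eosinophil granule genes Prg2, Epx and Prg3, with induced arrays in red left of uninduced arrays in blue and symbols for the replicate number. The replicate 1 array is the lowest of each group for all 5 probe sets, and induced replicate 3 is the highest array for all 5.

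Fcer1a, on chromosome 1 (173221269 to 173227232), encodes the IgE-binding chain. Its probe set read 5.20, 22.2 and 1.26 in induced cells, against 8.37, 17.8 and 32.5 in uninduced cells. All 6 values were dim and the groups overlapped, and the log2 difference was -0.51 ± 0.38 (SE, adjusted p of 0.536 in limma). It was -0.25 without uninduced replicate 3 and -0.84 without induced replicate 2. Kit was dim on all arrays with both of its probe sets. The brighter read 25.7, 37.3 and 5.53 in induced cells, against 41.7, 32.1 and 40.8 in uninduced cells, and the other read 7.65, 16.3 and 26.3 against 29.2, 9.21 and 8.02. Their log2 differences of -0.57 ± 0.34 and 0.08 ± 0.33 (SE) point in opposite directions, with an adjusted p of 0.442 for Kit in limma. The first was -0.20 without induced replicate 3 and -0.85 without induced replicate 2.

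Cpa3 had the lowest p of the set. Its probe set read 32.0, 43.5 and 54.0 in induced cells, against 9.60, 23.2 and 13.4 in uninduced cells. All 3 induced arrays lay above all 3 uninduced arrays, as in 10.7% of all genes, and all 6 values were dim. The log2 difference was 0.92 ± 0.24 (SE), with a 95% interval from 0.35 to 1.49, an unadjusted p of 0.00686 and an adjusted p of 0.150 in limma. It was alike between the replicate 1 arrays (0.91) and between the others (0.93). Under the alternative settings it stayed above 0 and uncalled, from 0.43 to 1.48 with adjusted p from 0.0815 to 0.401. With both groups below the yardstick, no fold change is given.

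GATA factors bind the bases GATA with flanks, so the promoters of the members were searched on both strands for GATA with A or T before it and A or G after it. RefSeq promoters of GRCm38.p6, from 250 bases before to 50 after a start site, were at hand for 8 of the 10 members, with 10 promoters in all, since Kit and Gata2 had a pair each. Of the 10 promoters 5 held a match, those of Fcer1a, Ms4a2, Cpa3, Hdc and Prss34, against 29.8% of all 32851 promoters. The Ms4a2 promoter held 3 matches and the Cpa3 promoter 1, at position -46 from the start site, and these are shown because 1 belongs to the receptor gene of the set that passed the dim line on some arrays and the other to the gene with the lowest p. Both lie on the minus strand and are written 5′ to 3′ in the direction of the gene, with the matches in capitals.
Ms4a2, chr19:11623670-11623969: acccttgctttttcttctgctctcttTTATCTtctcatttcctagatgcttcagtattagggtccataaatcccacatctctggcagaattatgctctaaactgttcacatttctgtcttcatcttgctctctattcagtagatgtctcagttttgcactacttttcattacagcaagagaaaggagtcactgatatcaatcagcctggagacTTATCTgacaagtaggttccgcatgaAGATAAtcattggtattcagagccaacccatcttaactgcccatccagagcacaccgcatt
Cpa3, chr3:20242132-20242431: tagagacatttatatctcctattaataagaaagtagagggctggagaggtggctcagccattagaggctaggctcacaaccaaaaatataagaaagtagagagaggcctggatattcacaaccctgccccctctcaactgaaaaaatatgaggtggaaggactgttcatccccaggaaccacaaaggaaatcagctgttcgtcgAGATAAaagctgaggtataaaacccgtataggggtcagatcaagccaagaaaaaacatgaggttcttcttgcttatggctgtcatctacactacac
A match describes the letters only. On all 6 arrays Gata2 was far above the dim line, while the level of Cpa3 was below it.

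The remaining proteases were dim throughout. Mcpt8, a serine protease of mouse basophils, read 3.43, 5.30 and 2.66 in induced cells, against 49.9, 3.0 and 3.35 in uninduced cells. Uninduced replicate 1 alone set its log2 difference of -0.55 ± 0.49 (SE, adjusted p of 0.604 in limma), which was 0.044 without that array. Tpsab1, which GRCm38.p6 annotates as a transcribed pseudogene in the C57BL/6J strain, read 38.8, 19.4 and 11.7 in induced cells, against 57.3, 39.9 and 29.9 in uninduced cells. Each induced array lay below the uninduced array of the same number, but the groups overlapped, and the log2 difference was -0.60 ± 0.31 (SE, adjusted p of 0.373 in limma). With the replicate number as a block its SE was 0.162 and its adjusted p 0.231. Tpsb2, its neighbour on chromosome 17, has a pair of probe sets that disagreed array by array. The brighter read 24.3, 4.90 and 35.7 in induced cells, against 11.7, 49.2 and 7.78 in uninduced cells, with a log2 difference of 0.01 ± 0.49 (SE, adjusted p of 0.997 in limma). The dimmer read 6.05, 18.9 and 5.13 against 49.5, 2.25 and 30.7, with -0.59 ± 0.49 (SE). The tryptase genes are close relatives, and signal of 1 may reach the probe sets of the other, which makes their separate values uncertain.

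Hdc, on chromosome 2 (126593659 to 126624025), was near the dim line with 1 of its probe sets. The brighter read 71.8, 72.0 and 23.9 in induced cells, against 97.1, 12.5 and 61.0 in uninduced cells. Induced replicates 1 and 2 were just above the line and all uninduced arrays below it, since the line itself stood at 99.3 on uninduced replicate 1, the brightest array for Hdc. The log2 difference was 0.10 ± 0.57 (SE), with a 95% interval from -1.27 to 1.48 and an adjusted p of 0.953 in limma. The dimmer read 6.67, 20.0 and 20.2 against 9.51, 11.3 and 9.82, dim on all arrays, with 0.24 ± 0.23 (SE).

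**Figure D4:**
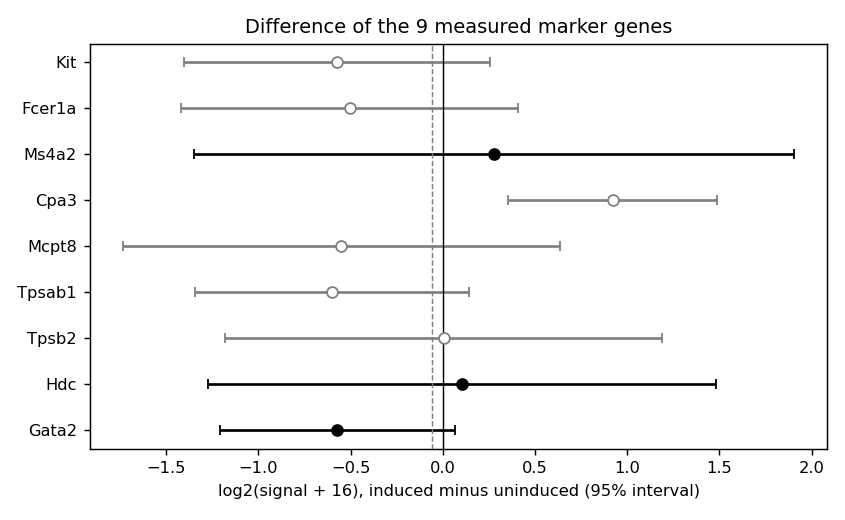
Log2 difference, induced minus uninduced, of the 9 measured marker genes with 95% intervals from limma. Open grey symbols are genes dim on all 6 arrays, filled symbols are the others, the solid line is 0 and the dashed line is the median of all genes (-0.06); the interval of Cpa3, from 0.35 to 1.49, is the 1 that does not hold 0.

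Of 36 other genes of mast cells and basophils 30 were measured, 12 of them above the dim line on all arrays and 14 dim on all. None passed in limma, and 1 higher and 5 lower had an unadjusted p under 0.05, against 17.4% of all genes in either direction. Of the 30, 6 had all induced arrays below all uninduced arrays, against 13.4% of all genes. The list's median difference was -0.37, against -0.06 over all genes. Cma1, a mast cell chymase, read 18.7, 74.2 and 88.0 in induced cells, against 216, 1155 and 1283 in uninduced cells. The groups did not overlap, and the log2 difference was -3.36 ± 0.76 (SE, adjusted p of 0.132 in limma). Induced replicate 1 was dim and the other induced arrays were not far above the dim line, so the size of this difference is uncertain. With signals raised to the dim line it was -2.93. Mitf, a transcription factor of mast cells and melanocytes, read 220.2, 150.4 and 172 in induced cells, against 505, 431 and 387 in uninduced cells, a log2 difference of -1.22 ± 0.20 (SE, adjusted p of 0.0897 in limma). Alox5, the 5-lipoxygenase of leukotriene synthesis, read 647, 283 and 417 against 1986, 1322 and 1388, with -1.82 ± 0.33 (SE, adjusted p of 0.10 in limma). Il4, a cytokine of basophils and other cells, read 51.1, 88.6 and 151 against 6.19, 24.6 and 27.7, with 1.63 ± 0.41 (SE, adjusted p of 0.147 in limma), and was dim on all uninduced arrays, so the size of its difference is uncertain. With the replicate number as a block, 2 higher and 8 lower of the 30 had an unadjusted p under 0.05, against 3269 of all 18193 genes. Again 0 passed.

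These counts turned on uninduced replicate 1. Without it 5 of the 30 genes fell and 0 rose in limma, where 4.77% of all genes fell and 3.22% rose. The 5 were Cma1 (-4.16), Cd200r3, an activating receptor of basophils and mast cells, Csf1, the macrophage growth factor (-1.54), Alox5ap, the partner of 5-lipoxygenase (-1.40), and Mitf (-1.12), with adjusted p from 0.0132 to 0.0404. Cd200r3 read 3.13, 9.16 and 2.13 in induced cells, against 8.63, 282 and 221 in uninduced cells, so that uninduced replicate 1 lay within the range of the induced arrays. It was dim on all induced arrays, and no size is given for its difference. The size for Cma1 is uncertain too, since its signal was dim on induced replicate 1. Several genes of stored granules and of FceRI, named here after their values were seen, were bright in both groups. Srgn, the core protein of granule proteoglycans, read 22194, 29177 and 26397 in induced cells, against 28020.0, 29601 and 28996 in uninduced cells. Slc18a2, the vesicular monoamine transporter that loads histamine, read 5571, 8213 and 10269.8 against 8132, 10783 and 11419.8. Fcer1g, the gamma chain that FceRI shares with other Fc receptors, read 2652, 4234 and 4226 against 4236, 5331 and 5507, a log2 difference of -0.46 ± 0.24 (SE, adjusted p of 0.384 in limma).

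**Figure D5:**
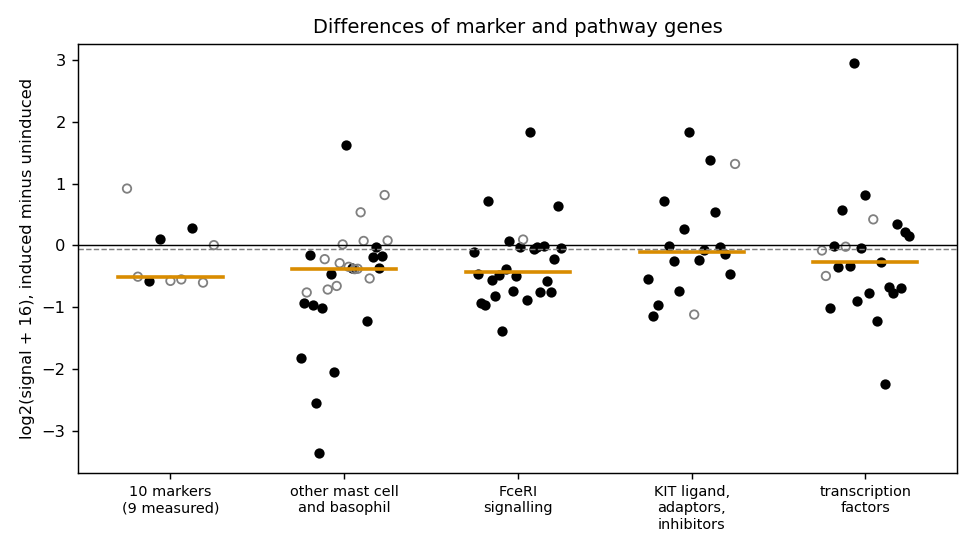
Log2 differences, induced minus uninduced, of the 9 measured markers and of the genes of 4 further lists, 1 symbol per gene. Open symbols are genes dim on all 6 arrays, orange lines are the medians of the lists (-0.51, -0.37, -0.42, -0.10 and -0.27 from left to right) and the dashed line is the median of all genes (-0.06); the lowest symbol is Cma1 and the highest is the transcription factor gene Ikzf1.

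Of 26 measured genes for signalling proteins downstream of FceRI, 25 had RNA signal above the dim line on all arrays, against 8832 of all 18193 genes. In limma 0 passed, 3 higher and 9 lower of the 26 had an unadjusted p under 0.05, against 17.4% of all genes, and the median difference was -0.42. Lcp2, the adaptor SLP-76, read 1327.5, 1269.6 and 991 in induced cells, against 3398, 3305 and 2688 in uninduced cells, with a log2 difference of -1.38 ± 0.19 (SE, adjusted p of 0.0750 in limma). Ptpn6, the phosphatase SHP-1, read 4674, 6849 and 7529.5 against 1357, 2024 and 1875, with 1.84 ± 0.26 (SE, adjusted p of 0.0750 in limma). Neither gene's groups overlapped. The kinase gene Fyn stood at -0.92 ± 0.20 and Vamp8, a SNARE of granule release, at 0.64 ± 0.16 (SE). Without uninduced replicate 1, 2 genes rose (Ptpn6 and Vamp8) and 6 fell (Gab2, Inpp5d, Lcp2, Prkcd, Stim1 and Syk) in limma, with differences from -1.32 to 1.67, against 3.22% and 4.77% of all genes. The kinase SYK and the adaptor SLP-76 carry the receptor's signal, and SHP-1 and the lipid phosphatase INPP5D restrain it.

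The list of the KIT ligand, adaptors and inhibitors had 18 measured genes, 15 of them above the dim line on all arrays, and a median difference of -0.10. In limma 0 passed, and 5 higher and 6 lower of the 18 had an unadjusted p under 0.05, against 17.4% of all genes. Besides Ptpn6, also a brake on KIT, the lowest p belonged to Socs1, an inhibitor of JAK kinases that binds KIT as well. It read 272, 340.4 and 288 in induced cells, against 135, 86.8 and 95.8 in uninduced cells, a log2 difference of 1.39 ± 0.21 (SE, adjusted p of 0.0823 in limma). Pik3r1, the regulatory subunit of PI3-kinase, stood at -0.74 ± 0.18, and Cblb, a ubiquitin ligase, at -1.14 ± 0.34 (SE). Without uninduced replicate 1, Ptpn6, Socs1 and Src rose and Cblb and Gab2 fell in limma, against 3.22% and 4.77% of all genes, the level of Src being dim on all 6 arrays.

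Gata2 was measured beside 23 other transcription factors of progenitor, mast cell and basophil identity, of which 17 were above the dim line on all arrays. In limma 0 passed, 2 higher and 6 lower of the 23 had an unadjusted p under 0.05, against 17.4% of all genes, and the median difference was -0.27. Cebpb, a basic leucine zipper factor of myeloid cells, read 5064, 4899 and 4424.5 in induced cells, against 7591, 11056 and 10717 in uninduced cells, with -1.01 ± 0.20 (SE, adjusted p of 0.112 in limma). Lyl1, a basic helix-loop-helix partner of GATA factors, read 4119.9, 4113 and 3082 against 7072, 6041 and 6016, with -0.76 ± 0.19 (SE, adjusted p of 0.144 in limma). For both genes the groups did not overlap. Ikzf1, the lymphoid and myeloid regulator Ikaros, read 649.8, 1309 and 1103 against 611, 52.6 and 34.4, with 2.94 ± 0.94 (SE, adjusted p of 0.206 in limma). It was dim on uninduced replicates 2 and 3, so the size of its difference is uncertain, and between the replicate 1 arrays the difference was 0.09. Gata1, the erythroid and mast cell relative of Gata2, was named after its values were seen. It read 2634, 3784 and 3335 against 2480.3, 2002 and 2044, with 0.57 ± 0.20 (SE, adjusted p of 0.230 in limma), the opposite sign to Gata2. Without uninduced replicate 1, Ikzf1 rose and Cebpb, Ikzf2 and Mitf fell in limma, against 3.22% and 4.77% of all genes, with Ikzf1 dim on both uninduced arrays that were left.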

How the data were processed

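RNA of 3 induced and 3 uninduced cultures was measured on 6 Affymetrix arrays, grouped by the labels' titles. The authors deposited signal intensity values on a linear scale, made with Affymetrix Expression Console 1.4.1 per the submitters' processing notes, with a summary algorithm not given in the sources used here. Each array's mean signal was 500.003 once the top and bottom 2% were trimmed.

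Of 45037 probe sets other than the 64 controls, the platform table gave 34945 exactly 1 symbol, 932 several and 9160 none, and only those with 1 were used. Of these, 34741 matched the GRCm38.p6 table by Entrez number, and 0 symbols changed. The probe set with the highest mean of log2(signal + 16) stood for its gene, and a second fit took all probe sets. Groups were compared in limma 3.58.1 under R 4.3.3 (linear model with empirical Bayes, two-sided), with Benjamini-Hochberg adjustment over the whole table and a threshold of 0.05. The procedure was tested on simulated data with independent values for each gene and array, and with changes only in genes at or above the median level. That test does not cover the replicate 1 difference or dim members. An exact permutation test of 3 against 3 cannot go below 0.1. Nothing in the labels makes the cultures separate experiments: p-values reflect the spread between these cultures, which may be technical, and precision is limited by having 6 arrays.

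The members and lists were chosen with earlier results of these data known. All members are named, with up to 4 genes of the lowest p from each further list, leaving out genes dim on all arrays. Over genes not dim on any array, deviations from the group means of arrays with the same number correlated (0.36, 0.207 and 0.315). Replicates 2 and 3 correlated across numbers as well (0.183 and 0.275), and replicate 1 correlated negatively with both (-0.331 to -0.216). These values set replicate 1 apart but do not pair 2 with 2 and 3 with 3. The block fit took the numbers as pairs, although the labels do not say what they stand for. Figures were drawn with matplotlib 3.10.9.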

Additional observations from a re-analysis of the deposited data

How the results depend on the processing

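In limma, 0 of the 9 members were called under every setting run, the fit with the replicate number as a block among them, which pairs the arrays and called 0 genes of the whole table (3269 at an unadjusted p under 0.05). Counts for the further lists were 0 with all arrays and moved as follows, beside counts over all genes that moved as well (21 higher and 13 lower with all arrays). The lists share genes, such as Ptpn6, Gab2 and Pik3r1 in the FceRI and KIT lists and Mitf in the mast cell and transcription factor lists. A shared gene counts in each. With genes under the 25th percentile of signal left out, 1 FceRI gene rose (Ptpn6) and 1 fell (Lcp2). The 1 KIT gene that rose was also Ptpn6 (32 higher and 37 lower of 13645 genes). With those under the median left out, 3 other mast cell and basophil genes fell, FceRI genes gave 2 higher and 3 lower, KIT genes 2 higher and 1 lower, and 3 transcription factors fell (323 higher and 419 lower of 9097 genes). A pseudocount of 64 gave 2 lower, 1 higher and 1 lower, 2 higher, and 2 lower in the same order of lists (122 higher and 133 lower of all genes). A trended and robust variance gave 2 lower, 2 higher and 3 lower, 2 higher and 1 lower, and 3 lower (237 higher and 313 lower of all genes). Raising signals to the dim line gave 4 lower, 3 higher and 5 lower, 3 higher and 3 lower, and 1 higher and 4 lower (509 higher and 828 lower of all genes). Averaging the probe sets of each gene gave 1 FceRI gene lower (23 higher and 21 lower of all genes). Without both replicate 1 arrays, a comparison of 2 against 2, the lists gave 6 lower, 2 higher and 6 lower, 3 higher and 3 lower, and 1 higher and 5 lower (524 higher and 953 lower of all genes). Leaving out each array in turn gave 0 to 5 lower for the other mast cell and basophil genes, 0 to 2 higher and 0 to 6 lower for FceRI, 0 to 3 higher and 0 to 2 lower for KIT, and 0 to 1 higher and 0 to 3 lower for the transcription factors, each count above 0 being the one without uninduced replicate 1, where 586 of all genes rose and 867 fell.

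Signs turned for members near or well below the dim line, and the cause was not tested. Tpsb2 stood at -0.013 with a pseudocount of 1, at -0.0073 with 64, at -0.29 as the mean of its probe sets, at -0.59 with its most variable probe set and at -0.26 without both replicate 1 arrays. Hdc was at -0.17 with the floor, and Ms4a2 at -0.17 with its most variable probe set. Mcpt8 was at 0.057 without both replicate 1 arrays. The dimmer Ms4a2 probe set was at 0.025 with a pseudocount of 64, 0.10 with the floor and 0.63 without both replicate 1 arrays. With each array left out, the differences spanned -0.35 to 0.99 for Ms4a2 (-0.75 to 0.68 for its dimmer probe set), -0.85 to 0.044 for Mcpt8, -0.27 to 0.45 for Tpsb2, -0.47 to 0.53 for Hdc and -0.12 to 0.37 for the dimmer Kit probe set. Without a turn of sign they spanned -0.85 to -0.20 for Kit, -0.84 to -0.25 for Fcer1a, -0.87 to -0.38 for Tpsab1, -0.79 to -0.39 for Gata2 and 0.78 to 1.09 for Cpa3. Median centring put the median of all genes at 0.10 and the floor at -0.22, against -0.06. Filters left out dim members, and genes dim on all arrays have no value with the floor.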

Other observations

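Markers of other blood lineages were measured beside the mast cell and basophil genes. Of 19 granulocyte and monocyte markers 7 were above the dim line on all arrays, and 6 had an unadjusted p under 0.05, all lower in induced cells, against 17.4% of all genes in either direction, with 0 passing in limma. Their summed signal was 2296 to 6964 in induced cells and 5031 to 13229 in uninduced cells. Of 11 erythroid and megakaryocyte markers, 1 higher and 3 lower had an unadjusted p under 0.05, against 17.4% of all genes. In limma 0 passed. Their summed signal was 8383 to 9429 in induced cells and 9745 to 10405 in uninduced cells, but members went both ways. Klf1 read 3687, 4499 and 4097 in induced cells, against 2025, 1922 and 2049 in uninduced cells. Its adjusted p was 0.0825 in limma. Gfi1b, Gp9 and Ppbp were lower, Ppbp being dim on all induced arrays. For Gfi1b the signals were 1707, 2149 and 1798 against 2665, 4190 and 3534 (adjusted p of 0.150 in limma). Gzmb, a granzyme of cytotoxic lymphocytes and mast cells that was singled out after its values were seen, read 14541, 1406 and 4807 in induced cells, against 15252, 20709 and 22171 in uninduced cells, with a log2 difference of -2.05 ± 0.79 (SE, adjusted p of 0.259 in limma).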
